A study of Mus musculus with 4 samples.

Results

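The genes described here encode enzymes that break down DNA and the lamins of the nuclear envelope: Dnase2b, Dnase2a, Dnase1, Dnase1l1, Trex1, Lmna, Lmnb1 and Lmnb2. They were measured by every probe set that the platform annotation pairs with exactly 1 of these genes by its current symbol or an older synonym, which gave 13 of the 45037 probe sets other than controls and covered 7 of the 8 genes, among 18193 genes measured in this way. Lmna had 5 of them, Lmnb1 and Lmnb2 had 2 each, and Dnase2b, Dnase2a, Dnase1 and Dnase1l1 had 1 each. Trex1, the exonuclease that removes stray DNA from the cytosol, had 0. The annotation pairs it only with a probe set shared with Atrip, so no level is given for it.

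The lenses came from mice at postnatal day 0.5 of the 129S3 background, labelled male. They were either Hsf4 knockout or wild type, with 2 arrays each. Hsf4 encodes heat shock transcription factor 4 of the lens, and the labels give the allele only as a knockout, without the part of the gene removed or whether animals were pooled. Levels below are normalized intensities, given for knockout arrays 1 and 2 and then for wild-type arrays 1 and 2.

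During fibre differentiation the cells that build the lens lose their nuclei and other organelles, which clears the light path. DNase II beta, the product of Dnase2b, is the acid DNase that digests the DNA of these nuclei, and mouse lenses without it keep undigested DNA and become cloudy. Lamins form the mesh under the inner nuclear membrane, which has to come apart when a nucleus is taken down. In dividing cells lamins are released by phosphorylation through Cdk1, and in dying cells they are cut by caspase 6.

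Both upstream regions printed next run from 250 bases before to 50 bases after an annotated gene start, 5′ to 3′ on the gene's strand, from RefSeq on GRCm38.p6. They are shown because the DNase II genes Dnase2b and Dnase2a gave different readouts and because heat shock factors bind inverted repeats of the unit GAA. Capitals mark the match to GAANNTTC, which reads the same on both strands. The Dnase2b region lies at chr3:146615549-146615848 on the minus strand and the Dnase2a region at chr8:84908505-84908804 on the plus strand.
Dnase2b: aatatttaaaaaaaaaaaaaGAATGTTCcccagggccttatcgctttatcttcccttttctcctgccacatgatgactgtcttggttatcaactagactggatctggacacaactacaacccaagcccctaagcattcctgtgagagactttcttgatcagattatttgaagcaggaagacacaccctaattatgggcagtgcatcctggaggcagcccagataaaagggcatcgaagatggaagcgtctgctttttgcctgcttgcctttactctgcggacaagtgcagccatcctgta
Dnase2a: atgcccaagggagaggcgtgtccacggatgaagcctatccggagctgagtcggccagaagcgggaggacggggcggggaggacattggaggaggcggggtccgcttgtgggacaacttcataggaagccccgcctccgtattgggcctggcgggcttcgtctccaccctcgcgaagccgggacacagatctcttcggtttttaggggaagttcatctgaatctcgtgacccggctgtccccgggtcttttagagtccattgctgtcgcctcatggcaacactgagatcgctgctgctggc
The Dnase2b window held 1 such match, GAATGTTC, whose first base is 230 bases before the start. The Dnase2a window held 0 matches to GAANNTTC and 0 to TTCNNGAA, the other arrangement searched. Of 32851 promoter windows of this length, 7.86% held GAANNTTC, 8.52% held TTCNNGAA and 15.1% held either. Among the 12 windows of 7 of the listed genes, the only other match was TTCCGGAA in one Lmna window. These 7 genes include Trex1, while Lmnb1 was left out of this search. The arrays do not show whether any factor occupies these letters.

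The arrays differed in scale before normalization, with median deposited intensities of 18.5 and 6.58 for the knockout and 21.4 and 10.5 for the wild type. Both number 2 arrays stood apart in 18S ribosomal RNA. The normalized intensity of its 5′ probe set was 14.3 and 7309 for the knockout, against 1.52 and 6898 for the wild type. That of its 3′ probe set was 10.6 and 3228, against 12.8 and 349. The only probe set named for Hsf4 measured 1212 and 413 on the arrays labelled knockout, against 505 and 138 on those labelled wild type, so it was not lower in the knockout, which goes against the labels. The labels do not say whether its probes fall inside the deletion. Xist, a transcript of female cells, measured 260.5 and 9.01 on the arrays labelled knockout and 605 and 58.0 on those labelled wild type. It was thus high on both number 1 arrays although all samples are labelled male. Genes of the Y chromosome were measured on these arrays too. The brightest probe set of Eif2s3y gave 101 and 161 for the knockout, against 60.4 and 208 for the wild type. That of Kdm5d gave 41.6 and 43.2, against 22.2 and 54.1. Other probe sets of these 2 genes were dimmer. The source of the Xist signal was not tested. Groups below, and every direction drawn from them, are therefore those of the arrays as labelled. Of 11 fibre markers, crystallins and membrane proteins among them, 10 lay above the 99th percentile of mean intensity, and Bfsp2 lay at 93.8. Their summed intensity was 65560 to 69008 on the knockout arrays and 65905 to 67396 on the wild-type arrays. But quantile normalization sets the brightest ranks to the same values on each array, so these sums cannot compare the amount of fibre RNA. Bfsp2 differed widely between the knockout arrays, at 60.1 and 2907, against 180 and 268 on the wild-type arrays. Of the lens epithelium markers, 1 of 7 was lower and 0 were higher without overlap (median log2 change -0.20). Of the retina markers, 0 of 5 were lower and 1 was higher (median -0.35). Of the erythroid markers, 0 of 4 were lower and 1 was higher, and 3 were higher within both array numbers (median 0.97). Over all 11594 genes tested, 14.3% were lower and 12.7% higher without overlap, and 3031 were higher within both array numbers.

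Among the listed genes that were tested, Dnase2b was the only one with a difference of at least 2-fold, and it was lower on both arrays labelled knockout. Its intensity was 143 and 262 there, against 402 and 579 on the arrays labelled wild type. The brighter knockout array thus remained below the dimmer wild-type array. In the values as deposited the intensities were 199 and 85.9 for the knockout and 613 and 441 for the wild type, and the groups did not overlap there either. The means were 202 ± 84.5 and 490 ± 126 (SD, n = 2 arrays each). The log2 change of (intensity + 16), which understates the change of dim genes, was -1.25 (SE 0.36). That is a knockout to wild-type ratio of 0.421 in (intensity + 16). Its 95% interval ran from -2.05 to -0.45, and the change was -1.40 between the number 1 arrays and -1.10 between the number 2 arrays. The call was not made: limma's adjusted p over the 22519 probe sets tested was 1, from an unadjusted p of 0.0063. Of all probe sets tested, 61 (0.271%) had a lower log2 change than Dnase2b and 0.395% had a lower p. Blocking on array number left this change as it was and gave limma's adjusted p of 1.38e-06. That fit has 1 residual degree of freedom per probe set and passed 317 probe sets in all, against 4 without the block. The labels do not say what the array numbers mark. Of the 4 arrays, only leaving out knockout array 2 also made the call, with a log2 change of -1.66. There the spread comes from the wild-type arrays and the lone knockout array is assumed to vary like them. That fit also passed more probe sets in all than the fit on 4 arrays, so its call is not particular to Dnase2b. Without knockout array 1 the change was -0.84, with no call. In bulk lens RNA, fewer cells of a type and less RNA per cell cannot be told apart.

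**Figure D1:**
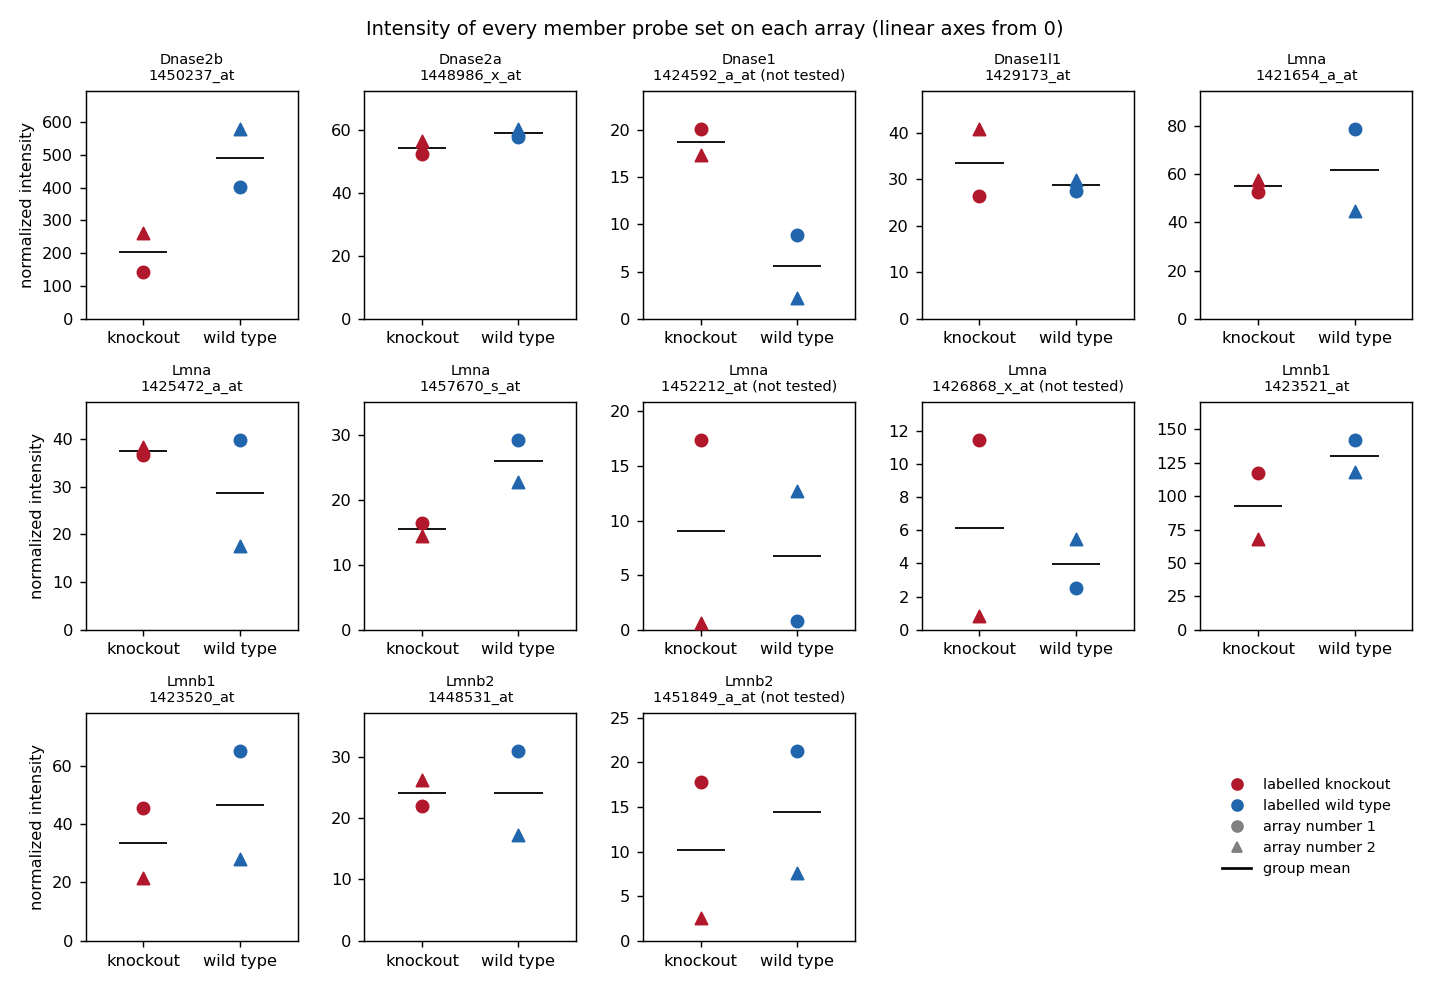
Normalized intensity of each of the 13 probe sets on each array, with knockout on the left and wild type on the right of every panel, linear axes from 0, and a bar at the mean of 2 arrays. For Dnase2b both knockout arrays (143 and 262) sit below both wild-type arrays (402 and 579), while most lamin panels overlap.

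Markers of muscle and fibroblasts, cells outside the lens, were also low on the knockout arrays. All 9 muscle markers were lower on both knockout arrays, with summed intensities of 128 and 138 against 2648 and 1321 on the wild-type arrays, and 2 of them, Actc1 and Myl1, passed the threshold. The 6 fibroblast markers measured summed to 288 and 478 on the knockout arrays, against 962 and 1455 on the wild-type arrays, and 0 of these 6 passed. On the knockout arrays some muscle markers lay near the floor, such as Tnnt3 at 1.97 and 0.76. Others stayed above the filter level of about 13.0, such as Acta1 at 38.7 and 53.1. Over all genes tested, 14.3% were lower and 12.7% higher without overlap. Of the 11 fibre markers, 1 was lower and 3 were higher without overlap, and their median log2 change was 0.00. That value is set by the normalization, which gave Cryba1 the same intensity in both groups, and the median was 0.54 with trimmed-mean scaling. Bfsp1, filensin of the beaded filament, was the lower one, at 2186 and 2060 in knockout against 5220 and 3785 in wild type (log2 change -1.06, adjusted p = 0.542 in limma). Mip, the main membrane protein of fibre cells, was among the higher ones, at 4896 and 4746 against 4228 and 3670 (log2 change 0.29, adjusted p = 1 in limma). The part of these other cell types in the Dnase2b value was not tested.

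Dnase2a, which encodes the DNase II of lysosomes in most tissues and is the closest relative of Dnase2b, had nearly equal levels in both groups. Its probe set measured 52.1 and 56.3 on the knockout arrays, against 57.5 and 60.2 on the wild-type arrays. The groups did not overlap, but they differed by a log2 change of only -0.09 (SE 0.30, 95% interval from -0.76 to 0.57, limma's adjusted p = 1). The suffix _x of this probe set, 1448986_x_at, marks probes that may also match other transcripts. On each array the log2 value of Dnase2b minus that of Dnase2a was 1.22 and 1.94 for the knockout, against 2.51 and 2.97 for the wild type. This difference was thus smaller on both knockout arrays, by 1.15 on the log2 scale. An exact two-sided permutation test over the 4 arrays gave p = 0.333, the smallest value that 2 against 2 arrays allow.

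**Figure D2:**
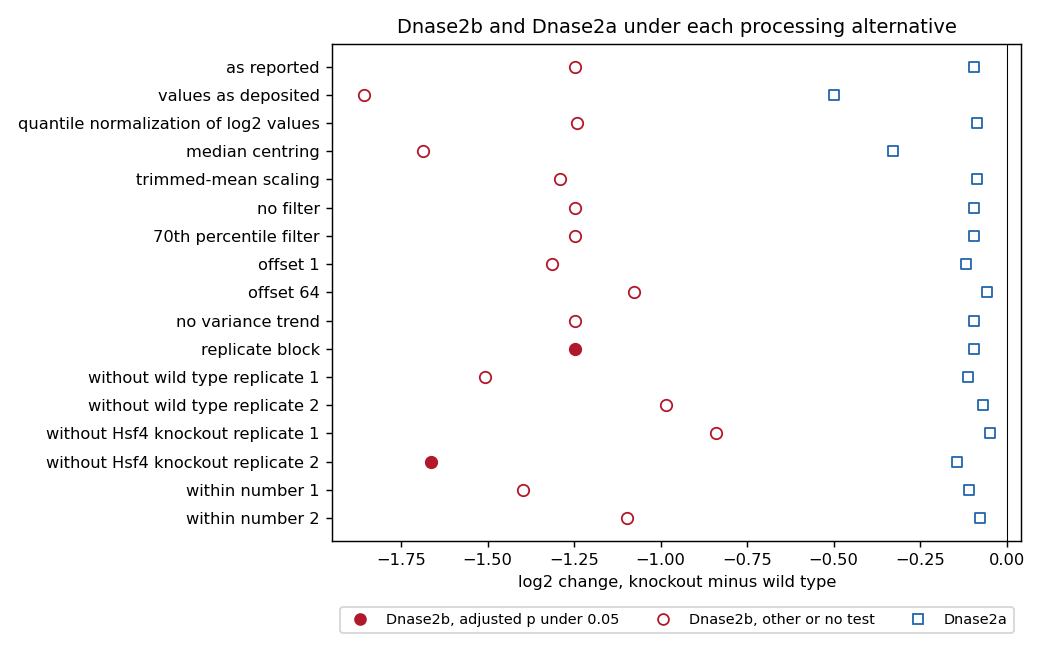
Log2 change, knockout minus wild type, of Dnase2b (circles, filled where limma's adjusted p is under 0.05) and Dnase2a (squares) under the reported processing and 16 alternatives. The filters, the variance model and the block cannot move the estimate. As the groups do not overlap, the sign is nearly fixed within array numbers and with 1 array left out. Dnase2b lies below 0 throughout, from -1.86 to -0.84, and is called only with the replicate block and without knockout array 2.

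Dnase1, the secreted DNase of digestive and urinary tissues, was dim on all 4 arrays. It measured 20.1 and 17.4 on the knockout arrays, against 8.84 and 2.23 on the wild-type arrays. Both knockout arrays were the brighter ones, but the mean lay below the filter at about 13.0, so the probe set was not tested and no fold is given. Dnase1l1, which encodes DNase X of the cell surface, measured 26.3 and 40.8 on the knockout arrays and 27.5 and 29.9 on the wild-type arrays. Here the groups overlapped, and the log2 change was 0.13 (SE 0.32, 95% interval from -0.58 to 0.85).

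Among the lamin genes no probe set passed the test, and the probe sets of Lmna did not run together. Lmna encodes the A-type lamins, which are typical of differentiated cells. Its brightest probe set, 1421654_a_at, measured 52.7 and 57.6 on the knockout arrays, against 78.9 and 44.9 on the wild-type arrays, and the groups overlapped. Probe set 1425472_a_at measured 36.7 and 38.4, against 39.8 and 17.7, with overlap as well. Only 1457670_s_at was lower on both knockout arrays, at 16.6 and 14.4 against 29.3 and 22.9. The suffix _s marks probes shared between transcripts. The 3 log2 changes were -0.10, 0.30 and -0.42, with standard errors of 0.33, 0.35 and 0.32 and limma's adjusted p of 1 each. The other 2 Lmna probe sets lay below the filter, between 0.65 and 17.4 on all arrays, and their highest values were on knockout array 1.

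Lmnb1 encodes the B-type lamin that is high in dividing cells. Its brighter probe set, 1423521_at, measured 118 and 68.2 on the knockout arrays, against 142 and 118 on the wild-type arrays. The groups just failed to overlap, with knockout array 1 at 117.7 and wild-type array 2 at 118.2. The log2 change was -0.46 (SE 0.34, limma's adjusted p = 1), with -0.24 between the number 1 arrays and -0.67 between the number 2 arrays. Leaving out 1 array at a time gave -0.78 (without knockout array 1) to -0.13 (without knockout array 2). Its dimmer probe set, 1423520_at, measured 45.6 and 21.6 against 64.9 and 28.0, which overlap, and its change was -0.31 (SE 0.40). Within each number both probe sets were lower in knockout. The list of 9 markers of dividing cells, in which Lmnb1 is known to be high, had a median log2 change of -0.29. Of the 9, 4 were lower and 1 was higher without overlap, where 14.3% and 12.7% of all 11594 genes tested were. Within both numbers 7 of the 9 were lower and 1 was higher, where 3191 and 3031 of the 11594 genes were. Mcm4, a helicase subunit of DNA replication, measured 250 and 142 on the knockout arrays and 280 and 332 on the wild-type arrays. Plk1, a mitotic kinase, ran the other way, at 108 and 96.1 against 89.6 and 74.9. Whether a different share of dividing cells plays a part in the Lmnb1 values was not tested.

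Lmnb2, the second B-type lamin gene, had nearly equal group means. Its probe set 1448531_at measured 21.9 and 26.2 on the knockout arrays, against 30.9 and 17.2 on the wild-type arrays, with both knockout values between the wild-type ones. The log2 change was 0.02 (SE 0.33, 95% interval from -0.73 to 0.76). The other Lmnb2 probe set lay below the filter, at 17.8 and 2.52 in knockout against 21.3 and 7.63 in wild type.

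**Figure D3:**
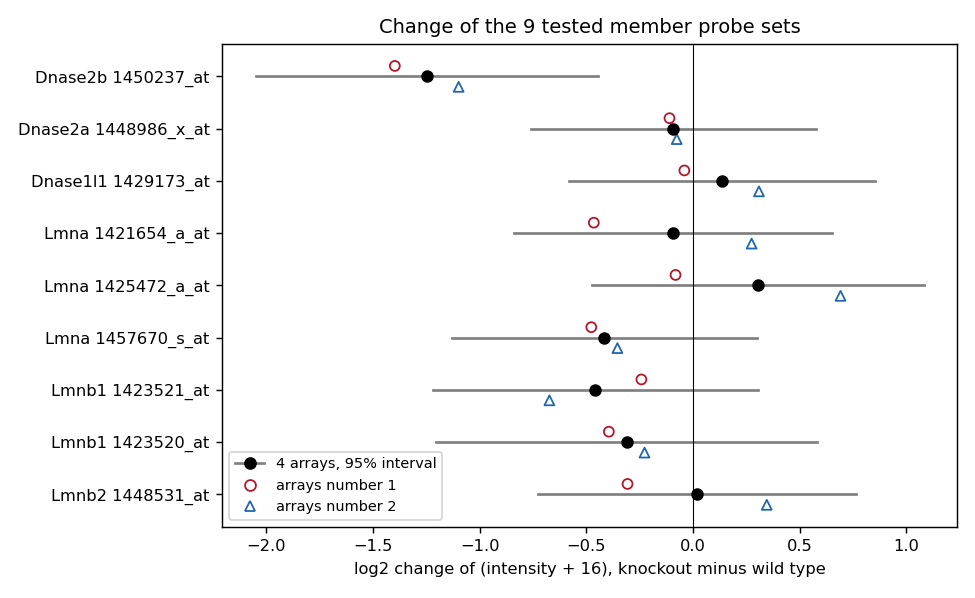
Log2 change, knockout minus wild type, of the 9 probe sets tested, with the 95% interval from limma over 4 arrays (black), and the change between arrays of number 1 (open circles) and number 2 (open triangles). The interval of Dnase2b, from -2.05 to -0.45, is the only one that leaves out 0.

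Of the 13 probe sets, 9 had a mean at or above the filter and were tested, and 0 of them passed the threshold of 0.05 in limma, where 0.0178% of all 22519 probe sets tested did, 0.00888% in each direction. An unadjusted p under 0.05 was reached by 1 of the 9, Dnase2b, and by 2.33% of all tested. Both knockout arrays were lower than both wild-type arrays for 4 of the 9, against 14.4% of all tested. Both were higher for 0 of the 9, against 12.6% of all tested. The 4 were Dnase2b, Dnase2a, 1 of 3 Lmna probe sets and 1 of 2 Lmnb1 probe sets, and the other tested probe sets of Lmna and Lmnb1 had overlapping groups. In either direction the count was 4 of the 9, against 27.0% of all tested. With the values as deposited the count was 1 of 10, Dnase2b alone, where 5.15% of all tested were lower without overlap. With median centring it was 2 of 10, where 14.4% of all tested were. Groups that did not overlap and differed at least 2-fold downward were found for 1 of the 9, against 0.555% of all tested.

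**Figure D4:**
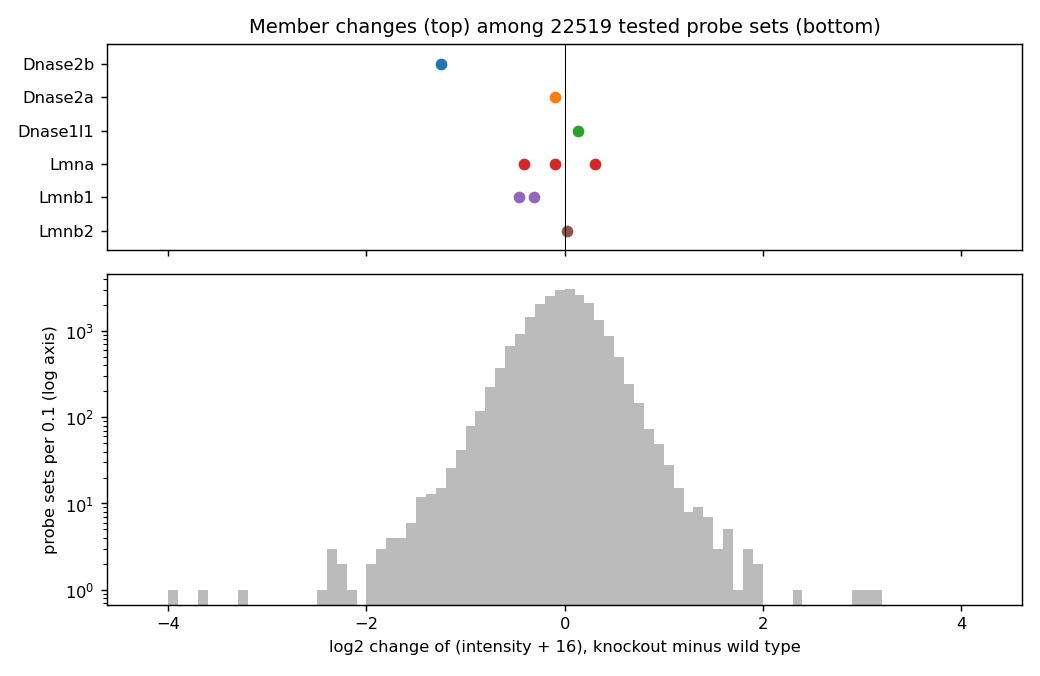
Top, log2 change of each of the 9 tested probe sets by gene. Bottom, the number of all 22519 tested probe sets per bin of 0.1 on a log axis. Dnase2b at -1.25 lies in the lower tail, beyond the 1st percentile of -0.89, and the others lie between -0.46 and 0.30, within the range from the 5th to the 95th percentile (-0.57 to 0.49).

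The other genes of DNA breakdown, of the nuclear envelope and of the steps around them gave 0 genes past the threshold in limma in 9 lists, where 0.0259% of the 11594 genes tested passed. Here each gene is represented by its brightest probe set, and 14.3% of all genes were lower and 12.7% higher in knockout without overlap, with a median log2 change of -0.01. Of 9 other DNase genes tested, 1 was lower and 2 were higher without overlap, and their median was -0.09. Endog, the endonuclease of mitochondria, measured 16.2 and 10.9 on the knockout arrays, against 23.4 and 26.4 on the wild-type arrays (log2 change -0.47). Samhd1, which depletes the building blocks of DNA, measured 45.9 and 72.3 against 38.3 and 41.0 (log2 change 0.41), although 2 of its 3 other tested probe sets had changes of the opposite sign. Pld3, an exonuclease of lysosomes, measured 306 and 341 against 245 and 294 (log2 change 0.25). Dffb, the caspase-activated DNase, measured 10.9 and 24.9 against 29.5 and 24.2, which overlap.

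The nuclear envelope list had 4 of 14 genes lower and 1 higher without overlap, with a median log2 change of -0.21, and -0.13 and -0.25 within the numbers. Syne2, which ties the nucleus to the cytoskeleton, had the lowest value, at 43.4 and 19.9 on the knockout arrays, against 64.2 and 68.8 on the wild-type arrays (log2 change -0.84, SE 0.34, limma's adjusted p = 1). Sun2, its partner in the inner membrane, measured 90.8 and 70.4 against 137 and 105 (log2 change -0.50), with its other tested probe set of the opposite sign. Tmpo, which encodes lamina-associated polypeptide 2 and binds lamins, measured 431 and 361 against 554 and 548 (log2 change -0.47), and 1 of its 3 other tested probe sets had the opposite sign. Lbr, the lamin B receptor, measured 361 and 270 against 369 and 431 (log2 change -0.34). These are the genes of the list with the lowest p, and each was lower without overlap. Emd, emerin, had overlapping groups and a log2 change of 0.05. It is given as a further lamin-binding protein, chosen after its value was seen.

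Genes that process lamin precursors had overlapping groups in 5 of 5 cases, with a median log2 change of 0.13. Zmpste24, the protease that matures prelamin A, measured 179 and 384 on the knockout arrays, against 143 and 276 on the wild-type arrays (log2 change 0.37, SE 0.42). In the list of caspases and cell death genes, 3 of 9 were lower and 0 higher without overlap, and the median was -0.01. Apaf1, the scaffold that activates caspase 9, measured 47.6 and 4.69 on the knockout arrays, against 49.1 and 53.3 on the wild-type arrays, so its log2 change of -0.89 rests on knockout array 2, with -0.03 between the number 1 arrays. Casp8, an initiator caspase, measured 15.7 and 30.3 against 35.1 and 42.4 (log2 change -0.51). Casp6, the lamin-cutting caspase, had a log2 change of 0.07 and overlapping groups, and was named after its value was seen.

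Around Cdk1, 1 of 11 genes was lower and 0 were higher without overlap, with a median of -0.07. Wee1, the kinase that holds Cdk1 inactive, had the lowest p of this list, at 100.2 and 58.6 on the knockout arrays, against 132 and 97.1 on the wild-type arrays, which overlap. Ccnb2, a cyclin partner of Cdk1, was the lower gene, at 149 and 123 against 175 and 192 (log2 change -0.40). The transcription factors and chromatin remodellers of fibre differentiation had 1 of 11 lower and 0 higher, with a median of -0.05. This list includes Hsf4 itself, which had its lowest p, with a log2 change of 1.36 and overlapping groups. Prox1, a homeobox factor of fibre elongation, measured 364 and 488 against 231 and 405, which overlap (log2 change 0.44). Of the 2 other tested probe sets of Prox1, 1 had the opposite sign. Lysosomal genes, of the compartment in which acid DNases work, had 1 of 10 lower and 1 higher, with a median of -0.03. Ctsd, cathepsin D, was the higher one, at 1015 and 943 on the knockout arrays, against 878 and 748 on the wild-type arrays (log2 change 0.27).

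Sensors of stray nucleic acids and genes raised by interferon, which respond in mice when DNase II alpha or Trex1 is missing, were mostly dim. Of 6 sensor genes tested, 1 was lower and 1 higher without overlap, with a median log2 change of 0.00. Irf7 was the lower one, at 9.90 and 14.4 on the knockout arrays, against 23.2 and 19.8 on the wild-type arrays (log2 change -0.42). Myd88 was the higher one, at 22.1 and 31.3 against 21.8 and 12.05 (log2 change 0.38). Of 10 interferon genes with a probe set, only 4 reached the filter, and all 4 had overlapping groups, with a median of 0.19, which was -0.14 with values as deposited, -0.03 without wild-type array 1 and 0.46 without wild-type array 2. The list of macrophage markers, cells in which Dnase2a is known to act, had 2 of 8 lower and 1 higher, with a median of -0.03 and summed intensities of 591 and 755 in knockout against 670 and 599 in wild type.

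**Figure D5:**
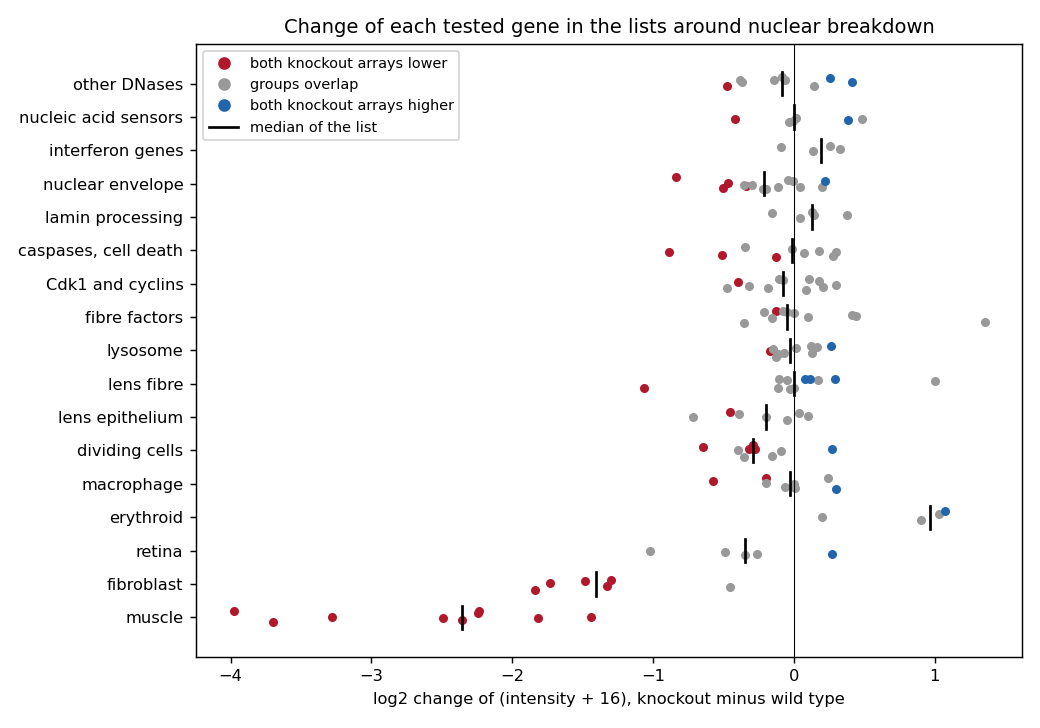
Log2 change, knockout minus wild type, of every tested gene in 17 lists, 1 point per gene, coloured by whether both knockout arrays were lower, the groups overlapped, or both were higher; black bars are medians. The muscle and fibroblast medians lie lowest at -2.35 and -1.41, followed by retina at -0.35, dividing cells at -0.29, the nuclear envelope at -0.21 and lens epithelium at -0.20, while the erythroid median lies highest at 0.97.

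The profiles most like Dnase2b were found by the Euclidean distance between log2 values centred on their own mean over the 4 arrays, among 20110 tested probe sets that name 1 gene. The nearest was Skap2, an adaptor of Src-family kinase signalling, at a distance of 0.135. It measured 36.0 and 69.4 on the knockout arrays, against 110 and 155 on the wild-type arrays. Prickle1, of planar cell polarity, followed at 0.194, with 106 and 170 against 262 and 368. Sfmbt1, a chromatin protein, lay at 0.274, Paics, an enzyme of purine synthesis, at 0.288, and Col6a2, a collagen chain, at 0.312. Like Dnase2b, each was lower on both knockout arrays and brighter on array 2 than on array 1 within each group. This likeness follows from choosing them by that distance. With only 4 arrays, such likeness is a description of these arrays.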

How the data were processed

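Lens RNA was hybridised to Affymetrix arrays, 1 per sample. The authors deposited 1 linear intensity per probe set and array. How probes were summarised, corrected and scaled is not stated in the labels. Here intensities were quantile normalized (limma 3.58.1, R 4.3.3), 16 was added and log2 taken. After that step 64 control probe sets were left out. A probe set was tested if its mean was at or above the median of all the others, 4.86 on the log2 scale. All 22519 such probe sets entered one limma fit with an intensity trend, with Benjamini-Hochberg adjustment. For gene lists the brightest probe set stood for a gene.

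Of the 45037 probe sets, 34945 name 1 gene, 932 several and 9160 none, with symbols updated through the gene ID. Genes and lists were chosen with earlier results of these data known. The rule for named genes took the members, Hsf4, up to 4 genes per list by lowest unadjusted p and the 5 profiles nearest to Dnase2b. Plk1, Pld3 and those said to be so were chosen after their values were seen. The exact permutation test used SciPy 1.17.1. The fit was tried on simulated data with independent noise on each array, unlike these arrays, where same-numbered ones deviate together. That check asked whether the sizes of planted changes were recovered. It does not show that the p-values hold for these arrays. No label says that samples came from separate animals, so p-values measure only the spread between arrays, which may be technical. Alternatives were other normalizations, filters, offsets and variance models, the array number as a block, and leaving out each array.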

Additional observations from a re-analysis of the deposited data

How the results depend on the processing

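The number of arrays limits the precision. The log2 change of Dnase2b stayed below 0 under all 16 alternatives, from -1.86 with values as deposited to -0.84 without knockout array 1. Not all of these could have come out otherwise. The filters, the variance model and the block change only the test, so the estimate stayed at -1.25 there. Because the groups did not overlap, the sign was also nearly fixed within each number and with 1 array left out. Leaving out 1 array at a time gave -1.66 to -0.84, with a call only without knockout array 2. With values as deposited the median change of all tested probe sets was itself -0.42, and with median centring -0.25. The labels do not say what the shared array numbers mark. The deviations of same-numbered arrays from their group means correlated at 0.43 over probe sets, which 2 pairs cannot settle. With the replicate number as a block, a fit with 1 residual degree of freedom per probe set, Dnase2b had -1.25 with limma's adjusted p of 1.38e-06; 1 member probe set and 317 probe sets in all then passed, against 0 and 4 without the block. The count over all probe sets was 0 with values as deposited and with no filter, 15 with median centring, and 5 to 663 when 1 array was left out; the count of member probe sets was then 0 to 1. Member probe sets lower without overlap numbered 1 of 10 with values as deposited and 2 of 10 with median centring, against 4 of 9. They numbered 4 of 9 to 8 of 10 when 1 array was left out, where the share of all probe sets also went up, to between 30.4% and 37.0% from 14.4%. These counts by setting were added after seeing the data. Of the 13 member probe sets, 8 changed sign under some alternative, 5 of them tested. Dnase1l1 was -0.25 as deposited, -0.075 with median centring and -0.087 to 0.32 with 1 array left out. Lmna 1425472_a_at was -0.12 as deposited and -0.061 to 0.59 with 1 array left out, and 1421654_a_at was -0.42 to 0.22. Lmnb1 1423520_at was -0.77 to 0.12. Lmnb2 1448531_at was -0.33 as deposited, -0.16 with median centring and -0.24 to 0.23 with 1 array left out. Of those below the filter, Lmna 1452212_at was -0.37 to 0.68, Lmna 1426868_x_at -0.22 to 0.51 and Lmnb2 1451849_a_at -0.63 to 0.21 with 1 array left out. Of the 17 list medians, 5 kept their sign under all 17 alternatives: muscle, fibroblast, dividing cells and nuclear envelope below 0 and erythroid above 0. The other 12 did not. The cause was not tested. A probe set that fell below the filter under an alternative has no value there.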
